A study of Mus musculus with 25 samples.

Results

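N1/RBP fragments are the stretches of genome that split DamID (SpDamID) marked where N1 (Notch1) met RBP, through which the Notch complex binds DNA, scored over a Dam control. All fragments of the N1/RBP list on the 19 autosomes and the X chromosome were taken, which gave 28281 fragments and left out 0, of the 96405 distinct regions held by the 6 SpDamID lists of the series on these chromosomes. They were then split by whether any of the 5 other complex lists (N1/MAML, N1/p300, N1/N1, Mef2c/MAML and Mef2c/p300) held the same fragment. Of the 28281, 5044 stood in the N1/RBP list alone (17.8%, exact Clopper-Pearson 95% interval 17.4 to 18.3%) and 23237 were shared with at least 1 other list.

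In the Notch pathway, ligand binding releases the intracellular part of the receptor, which enters the nucleus and joins RBP on DNA. The co-activator MAML binds across N1 and RBP, and it recruits p300, an acetyltransferase that modifies histones and other proteins at active regulatory DNA. N1/RBP is thus the base of the complex, and N1/MAML, N1/p300 and N1/N1 (a pair of N1 molecules, which can form on paired sites) read its further members. Mef2c is a MADS-box transcription factor outside the Notch complex, and the Mef2c/MAML and Mef2c/p300 pairs read the same co-activators without N1. FAIRE recovers DNA that is loosely packed with histones, as at active promoters and enhancers.

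All 25 libraries are from mK4, a mouse line from embryonic kidney mesenchyme. The list rests on 3 libraries titled N1-D/RBP-AM-Ert2 against 3 titled DAM, all with the strain label CD1. D and AM name the parts of the Dam methylase that each fusion carries, and DAM names the control. The labels give no genotype, treatment, dose or time for any of these libraries, and every library is from a single cell line. They do not say whether libraries of a group came from separate cultures. Behind the N1/MAML and N1/p300 lists stand 3 libraries each, behind N1/N1 stand 2 (1 of them with the strain label CD2), and Mef2c/MAML (strain label CD3) and Mef2c/p300 (CD1) rest on 1 each. The FAIRE lists are from N1wt cells, with 3 N1wt, 3 control and 1 input library in the series, and the ChIP list has 1 N1 library and 1 input. Expression was not measured in these libraries, so the cell type could not be checked against markers. No fragment sequence or gene name is given, since no genome of build mm9, the build of these lists, was used here.

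Each deposited list merges its libraries into a single value per fragment, so depth per library is unknown and no comparison below has a replicate error or a test. Shares carry exact Clopper-Pearson 95% intervals, which cover counting error only and are too narrow for neighbouring fragments that move together. The spread over the 20 chromosomes is given as a description. The score of a fragment is the authors' deposited whole number for the complex over Dam, on a scale that the sources used here do not give. The same DAM libraries served as control for all 6 lists. In all 23237 shared cases the fragment had identical start and end positions in the other list.

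N1/RBP fragments were spread over all 20 chromosomes at very unequal density. Chromosomes 19, 11 and 8 held the most per Mb of their listed span, at 19.1, 18.4 and 16.2 fragments per Mb. The lowest densities were those of the X chromosome (3.02), chromosome 14 (7.29) and chromosome 12 (7.90). SpDamID regions of any kind were also densest on chromosomes 19, 11 and 8, at 65.5, 55.3 and 51.8 per Mb. Among autosomes they were sparsest on chromosomes 12 and 14, at 27.2 per Mb each. The X chromosome had the lowest density of SpDamID regions of any kind too, 16.5 per Mb against 27.2 to 65.5 per Mb on the autosomes. N1/RBP was scarcer there even beside that: 18.3% of the X chromosome's SpDamID regions were N1/RBP fragments, against 26.7% (chromosome 18) to 33.3% (chromosome 11) on autosomes. The X chromosome held 1.75% of N1/RBP fragments and 1.91 to 2.89% of the regions of the 5 other lists. The share of fragments found in the N1/RBP list alone differed less by chromosome, from 12.6% on chromosome 3 to 22.5% on chromosome 4, with 18.4% on the X chromosome. Median length moved little, between 653 and 685 bp, and median score lay between 295 on the X chromosome and 357 on chromosome 16.

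**Figure D1:**
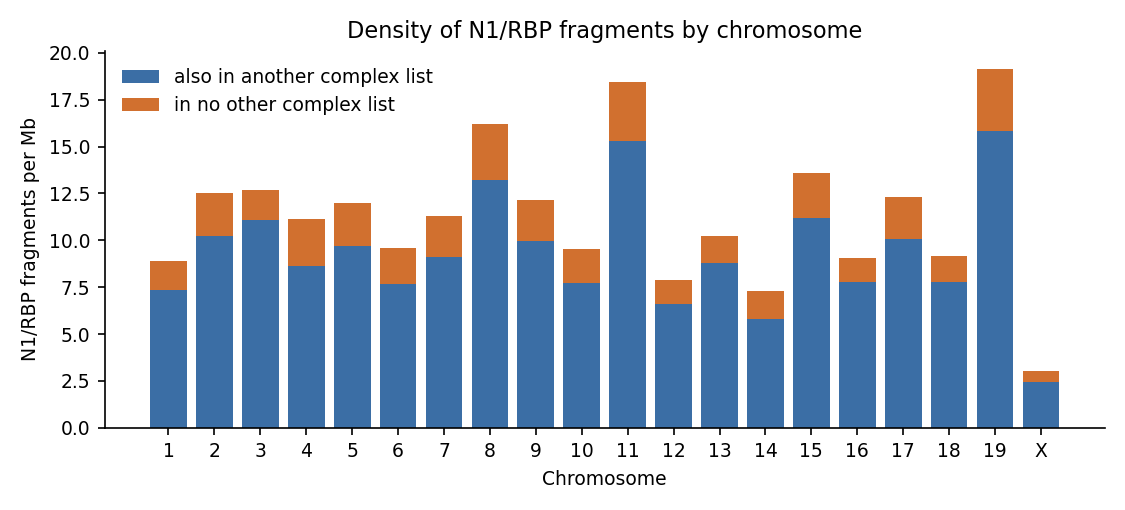
N1/RBP fragments per Mb of listed span (vertical axis) on each chromosome (horizontal axis), stacked into fragments also held by another complex list (blue) and fragments in no other complex list (orange). Chromosome 19 stands highest at 19.1 per Mb and the X chromosome lowest at 3.02 per Mb, while the orange part is 12.6 to 22.5% of every bar.

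At a finer scale the fragments were concentrated in few places. Windows were not counted for all SpDamID regions, so whether this is particular to N1/RBP is not known. Of 2587 windows of 1 Mb, 630 (24.4%) held no N1/RBP fragment, the median window held 6, and 399 windows (15.4%) held 50% of all fragments. The fullest window, on chromosome 8 from 124 to 125 Mb, held 97 fragments, of which 17 stood in the N1/RBP list alone. Next came 2 adjacent windows of chromosome 5, 139 to 140 Mb with 94 fragments and 140 to 141 Mb with 92.

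The fragments were short and of narrow length range. The median was 667 bp, the middle 50% lay between 523 and 869 bp and the middle 90% between 391 and 1256 bp, and together they covered 20.6 Mb. The shortest had 226 bp, above the 109 bp of the shortest region in any SpDamID list. Only 46 (0.163%) exceeded 2 kb and 6 exceeded 5 kb. The 3 longest were chromosome 7, 71610493 to 71641243, with 30751 bp and an N1/RBP score of 484, the X chromosome, 131574779 to 131592127, with 17349 bp and a score of 589, and chromosome 19, 24985809 to 24994603, with 8795 bp and a score of 161. Each of these 3 was shared with all 3 other N1 lists, at scores from 401 to 764. None of the 3 met a FAIRE or ChIP region. Scores of all members ran from 1 to 854 with a median of 332 and quartiles of 186 and 464.

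Gaps between neighbouring N1/RBP fragments ran from none to 11467105 bp, the longest on chromosome 14. Of the 28261 pairs of neighbours, 3416 (12.1%) abutted with no base between them. A further 1625 (5.75%) were separated by 1 to 225 bp, which is less than the shortest fragment, and 2274 (8.05%) by 226 bp to 1 kb. Gaps over 1 to 5 kb made up 3070 pairs (10.9%) and those over 5 to 20 kb 4920 (17.4%). The most frequent class of gap was 20 to 100 kb, with 8383 pairs (29.7%), and 4573 pairs (16.2%) were over 100 kb apart. The median gap was 15351 bp. For a single fragment, the median distance to its nearest neighbour on either side was 2103 bp, with quartiles of 53 and 18987 bp, and 24.1% had no other N1/RBP fragment within 20 kb. Within 1 kb, 44.1% of fragments (43.5 to 44.6%) had a neighbour, and this share lay between 37.1% on chromosome 14 and 52.4% on chromosome 3. When abutting fragments were first merged, the share was 28.4%.

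Neighbours resembled one another in which lists held them, and hardly in score. When the left fragment of an abutting pair stood in the N1/RBP list alone, the right one did so in 22.3% of pairs, against 9.27% when the left one was shared. At gaps of 1 to 225 bp the shares were 33.5 and 7.98%, and beyond 100 kb they were 22.9 and 20.03%. The absolute score difference between neighbours had a median of 156 for abutting pairs and 169 for pairs over 100 kb apart. Both members of the pair lay in total FAIRE in 40.7% of abutting pairs and in 7.54% of pairs over 100 kb apart. A single FAIRE region can span both members of a close pair. Of the 2274 gaps of 226 bp to 1 kb, 227 (9.98%) were filled from end to end by 1 region of another complex list.

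**Figure D2:**
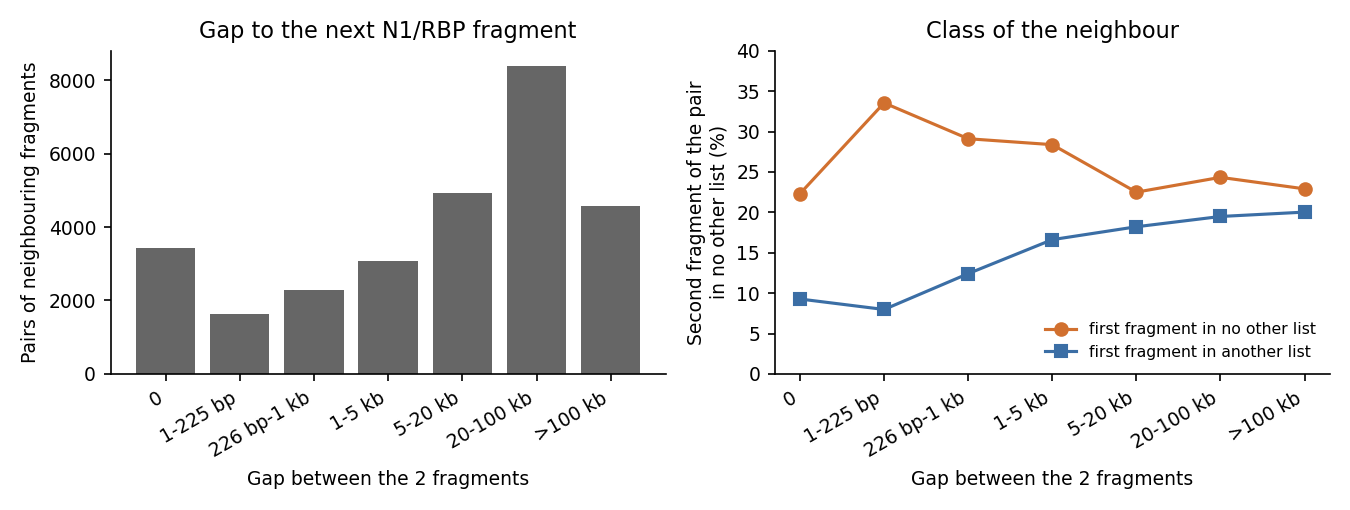
Left, number of neighbouring N1/RBP pairs by the gap between them in 7 classes. Right, percent of pairs whose second fragment stands in no other complex list, for a first fragment in no other list (orange circles) and in another list (blue squares), with the lines furthest apart at gaps of 1 to 225 bp (33.5 against 7.98%) and near each other beyond 100 kb (22.9 against 20.03%).

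Joining fragments no more than 1 kb apart gave 20966 groups. Of the 28281 fragments, 15822 (55.9%) stayed single, while 3707 groups held 2 fragments, 967 held 3, 303 held 4 and 167 held 5 or more. Fragments in larger groups had higher scores and lay in FAIRE more often. The median score was 301 for single fragments, 359 in groups of 2, 398 in groups of 3 to 4 and 442 in groups of 5 or more. The share in the N1/RBP list alone was 22.1, 14.0, 10.4 and 7.83% in the same order, and the share held by all 5 other lists was 7.11, 12.2, 16.8 and 19.7%. Total FAIRE held 28.8, 43.3, 50.2 and 53.4% of them, against 19.3% of all 96405 SpDamID regions. For N1 ChIP the shares were 2.13, 3.09, 3.70 and 6.01%, against 1.41% of all SpDamID regions.

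The largest group, on chromosome 11 from 96597494 to 96611061, held 14 fragments in 13568 bp, with scores of 276 to 606. Of these, 6 were in all 5 other lists, 1 was in the N1/RBP list alone, 5 lay in total FAIRE and 0 in ChIP. A pair of groups on chromosome 5 held 9 fragments each, from 140268213 to 140274696 and from 143578110 to 143586037. All 9 fragments of both groups lay in total FAIRE, with 4 and 5 of them in ChIP. On the first of these groups, 1 FAIRE region of 9111 bp reached over the whole group, so its 9 overlaps are not 9 separate open sites. A group of 8 on chromosome 2, from 102783865 to 102790011, had 2 fragments in total FAIRE, both in the Notch-dependent list. A group of 8 on chromosome 3, from 108658326 to 108667000, had 4 in total FAIRE and none in all 5 other lists. The first 3 groups thus differed in readouts, ranging from 0 of 14 to 5 of 9 fragments in ChIP.

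Where exactly 3 fragments abutted in a row, the middle one tended to stand out. There were 349 such runs, and the middle fragment had the highest score in 157 of them (45.0%, interval 39.7 to 50.4%), against 95 for the left and 97 for the right. The median score was 408, 453 and 362 from left to right. Total FAIRE held 51.0, 55.9 and 47.3% of them, and 12.3, 4.58 and 9.74% stood in the N1/RBP list alone.

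Among the other complexes, N1/N1 and Mef2c/MAML held the most N1/RBP fragments. N1/N1 held 16630 (58.8%), Mef2c/MAML 15422 (54.5%), N1/p300 12766 (45.1%), Mef2c/p300 8457 (29.9%) and N1/MAML 8366 (29.6%). These counts are to be read beside the sizes of the lists, and what the common DAM control adds to them was not tested. Of all 96405 SpDamID regions, the lists held 31936, 50380, 22358, 28757 and 16545 in the same order. The Mef2c lists thus held about the same share of N1/RBP fragments as of all SpDamID regions. The other N1 lists held a larger share of N1/RBP fragments than of all SpDamID regions. That total is built from these same lists, and holds 22724 regions private to Mef2c/MAML and 11782 private to Mef2c/p300. A share equal to that of the total therefore does not show that a list lacks a preference for N1/RBP fragments. By number of other lists, 6464 fragments were in 1, 5295 in 2, 4229 in 3, 4345 in 4 and 2904 in all 5. Other N1 lists but no Mef2c list held 6242 fragments, Mef2c lists but no other N1 list held 3032, and both kinds held 13963.

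Fragments in the N1/RBP list alone were longer, scored lower and stood further from their neighbours than shared ones. Their median length was 812 bp (quartiles 661 and 989) against 635 bp (505 and 832), longer on 20 of 20 chromosomes by 144 to 233 bp. Their median N1/RBP score was 191 against 367, lower on 20 of 20 chromosomes by 154 to 195. The nearest other N1/RBP fragment was at a median of 6168 bp against 1482 bp. Another lay within 1 kb of 30.6% of them (29.3 to 31.9%) against 47.0% of shared ones (46.3 to 47.6%), and the shared share was above on 20 of 20 chromosomes. With the alone fragments weighted to the length and score deciles of the shared ones, this difference was 7.10 points in place of 16.4. The median score was higher with each further list, at 191, 265, 320, 371, 449 and 540 from 0 to 5 other lists. The median length was 812, 810, 679, 604, 538 and 551 bp in the same order, lowest at 4 lists.

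The share of fragments in the N1/RBP list alone fell from 39.2% at scores up to 50 to 24.6% at scores over 200 to 300, 6.71% over 400 to 500, and 3 of 1066 (0.281%) over 600 to 700. At scores over 700 it was 9 of 25 (36.0%, interval 18.0 to 57.5%). By length quartile it was 4.96% from 226 to 523 bp, 13.5% from 524 to 667 bp, 24.2% from 668 to 869 bp and 28.8% from 870 bp up.

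**Figure D3:**
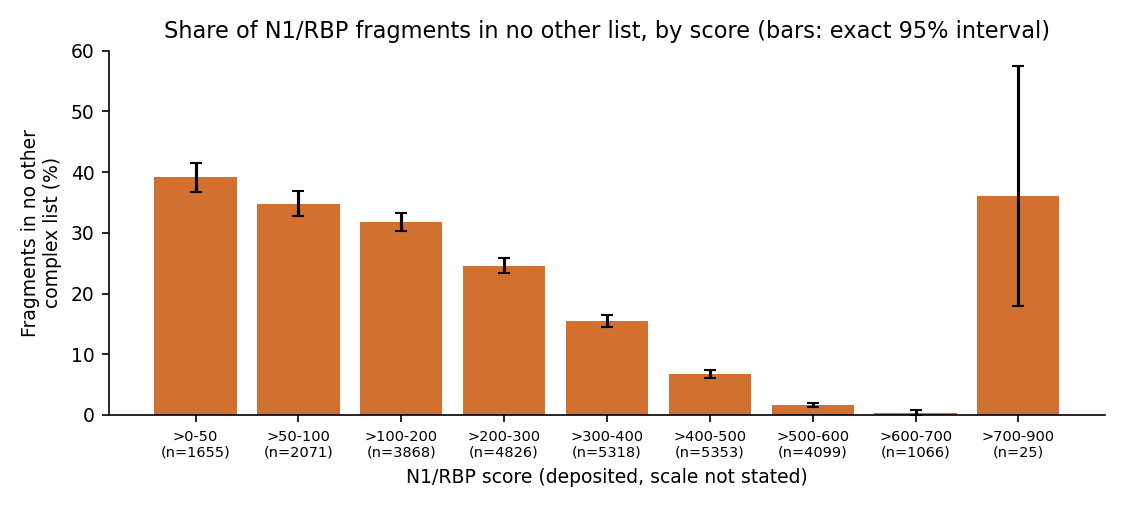
Percent of N1/RBP fragments that stand in no other complex list (vertical axis) by deposited N1/RBP score (horizontal axis, number of fragments under each bar), with exact Clopper-Pearson 95% intervals. The share falls from 39.2% at scores up to 50 to 0.281% at scores over 600 to 700 and is 36.0%, with a wide interval, for the 25 fragments over 700.

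The 25 fragments over 700 are at 13 places when joined within 100 kb, and all 9 of those in the N1/RBP list alone fell at 4 of the places. These 4 places were singled out after their values were seen. On chromosome 3, 4 fragments between 97945428 and 97951844 scored 845, 819, 854 and 825. The highest of the whole list, 97950457 to 97950975 with 854, and the second, 97945428 to 97947248 with 845, were also held by N1/MAML, at scores of 562 and 493. The fragments on either side of the first, 97949806 to 97950456 with 819 and 97950976 to 97951844 with 825, abut it and were in no other list. On chromosome 5, 54033224 to 54044979 held 5 fragments in a row, all in the N1/RBP list alone, with scores of 790, 774, 612, 652 and 815. On chromosome 4, 49362469 to 49364912 scored 812, with an N1/MAML score of 68, and 3 fragments 78401 bp or more beyond it scored 783, 765 and 764 and were in no other list. On chromosome 6, 46479230 to 46480718 scored 818, and its nearest N1/RBP fragment was 708259 bp away and the nearest region of another complex list 645365 bp.

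None of the 12 fragments over 700 at these 4 places met a total FAIRE or N1 ChIP region. Of the 13 such fragments at the 9 other places, 12 lay in total FAIRE and 3 in ChIP. All 3 in ChIP, and 4 of the 12 in total FAIRE, were at a single place on chromosome 2, 26315080 to 26320456. At the 4 places N1/MAML held 3 of the 12 fragments and no other complex list held any. What lies at the 4 places was not tested, including whether any is the gene of a fused protein or a sequence related to one. Their high scores were thus not shown to come from binding there. Without their 14 fragments the share in the N1/RBP list alone was 17.8%, as with them, and among the top 1000 fragments by score, 12 stood in this list alone and 611 in all 5 others.

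Open chromatin was read from total FAIRE, the FAIRE regions of N1wt cells. N1/RBP fragments found in other lists lay in it far more often than those found in no other list. Of the shared fragments, 9534 lay in total FAIRE (41.0%, interval 40.4 to 41.7%), and of the alone ones, 788 (15.6%, 14.6 to 16.7%), a difference of 25.4 points. The background is 19.3% of all SpDamID regions and 12.2% of those outside the N1/RBP list, so fragments of this list alone were below the first and above the second. The shared share was higher on 20 of 20 chromosomes, by 11.4 points on the X chromosome to 29.8 on chromosome 11 (mean 24.4 ± 3.85, SD over 20 chromosomes). With the number of other lists from 0 to 5, the share rose in each step: 15.6, 29.1, 35.01, 40.5, 51.6 and 63.5%.

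Notch-dependent FAIRE, the FAIRE regions that the authors deposited as depending on Notch, held few fragments of either class. It held 1378 of the shared fragments (5.93%, interval 5.63 to 6.24%) and 105 of the alone ones (2.08%, 1.71 to 2.51%), against 2.8% of all SpDamID regions and 1.78% of those outside the list. The interval of the alone share includes that last value. The difference of 3.85 points was above 0 on 20 of 20 chromosomes, from 1.03 points on the X chromosome to 6.19 on chromosome 17. From 0 to 5 other lists the share was 2.08, 3.45, 5.50, 5.98, 8.06 and 8.99%, with overlapping intervals between 2 and 3 lists and between 4 and 5.

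N1 ChIP, which pulls down N1 through a myc tag, held 695 of the shared fragments (2.99%, interval 2.78 to 3.22%) and 79 of the alone ones (1.57%, 1.24 to 1.95%). The background is 1.41% of all SpDamID regions and 0.862% of those outside the list. The shared share was above the alone share on 19 of 20 chromosomes, and on chromosome 7 shared minus alone was -0.585 points. This difference did not keep its sign at matched length and score: with the alone fragments weighted to the length and score deciles of the shared ones, it was 2.80% against 4.79%, or -1.99 points in place of 1.42. The weighting leaves an effective number of 594.7 alone fragments, since few of them are short or high in score. By number of other lists, ChIP did not rise throughout. It was 1.57, 1.79, 2.72, 3.41 and 4.76% from 0 to 4 lists, and 2.89% for fragments in all 5.

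**Figure D4:**
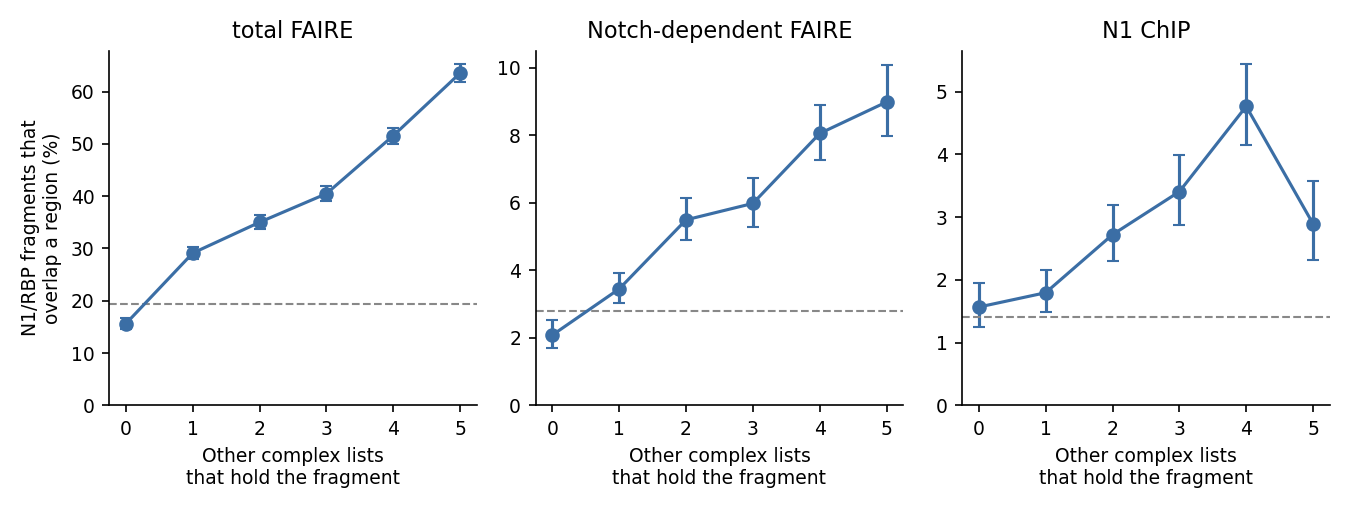
Percent of N1/RBP fragments that overlap a total FAIRE, Notch-dependent FAIRE or N1 ChIP region (vertical axes, each with its own scale) by the number of other complex lists that hold the fragment (horizontal axes), with exact Clopper-Pearson 95% intervals and, as dashed lines, the share of all 96405 SpDamID regions (19.3, 2.8 and 1.41%). Total FAIRE rises from 15.6 to 63.5%, while N1 ChIP is highest at 4 lists, 4.76%, and 2.89% at 5.

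Length and score differ between the classes, so each readout was set out within quartiles of both. The gap in total FAIRE was present in each quartile. From the shortest to the longest quartile, alone fragments lay in total FAIRE in 11.1, 12.4, 15.4 and 18.1% of cases and shared ones in 44.7, 38.3, 38.7 and 42.0%. From the lowest to the highest score quartile, the alone shares were 14.5, 15.8, 18.7 and 14.8% (the last 23 of 155) and the shared ones 31.2, 33.1, 40.9 and 54.1%. FAIRE thus rose with score among shared fragments, while the alone shares stayed between 14.5 and 18.7%. In Notch-dependent FAIRE, the alone shares were 1.94, 1.68, 3.24 and 2.58% from the lowest to the highest score quartile, and the shared ones 4.50, 4.34, 5.61 and 8.44%.

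The share in ChIP was lower for longer fragments. ChIP held 5.09% of fragments of 226 to 523 bp, 3.21% of 524 to 667 bp, 1.52% of 668 to 869 bp and 1.12% of longer ones. All 774 fragments that met a ChIP region had identical ends in the ChIP list, so that list too lies on the map of fragments, and 65.5% of its 22306 regions are shorter than the shortest N1/RBP fragment. Within the length quartiles the alone shares were 3.99, 2.51, 1.12 and 1.08% and the shared ones 5.14, 3.32, 1.65 and 1.13%, with overlapping intervals in each quartile. From the lowest to the highest score quartile the alone shares were 1.41, 1.55, 1.50 and 4.52% (the last 7 of 155, 1.83 to 9.08%) and the shared ones 2.17, 2.52, 2.92 and 3.97%. The alone share was the lower in the first 3 of these quartiles, and intervals overlapped in each. Overlap of separate intervals does not show that the classes are alike, and the differences within quartiles were not tested.

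**Figure D5:**
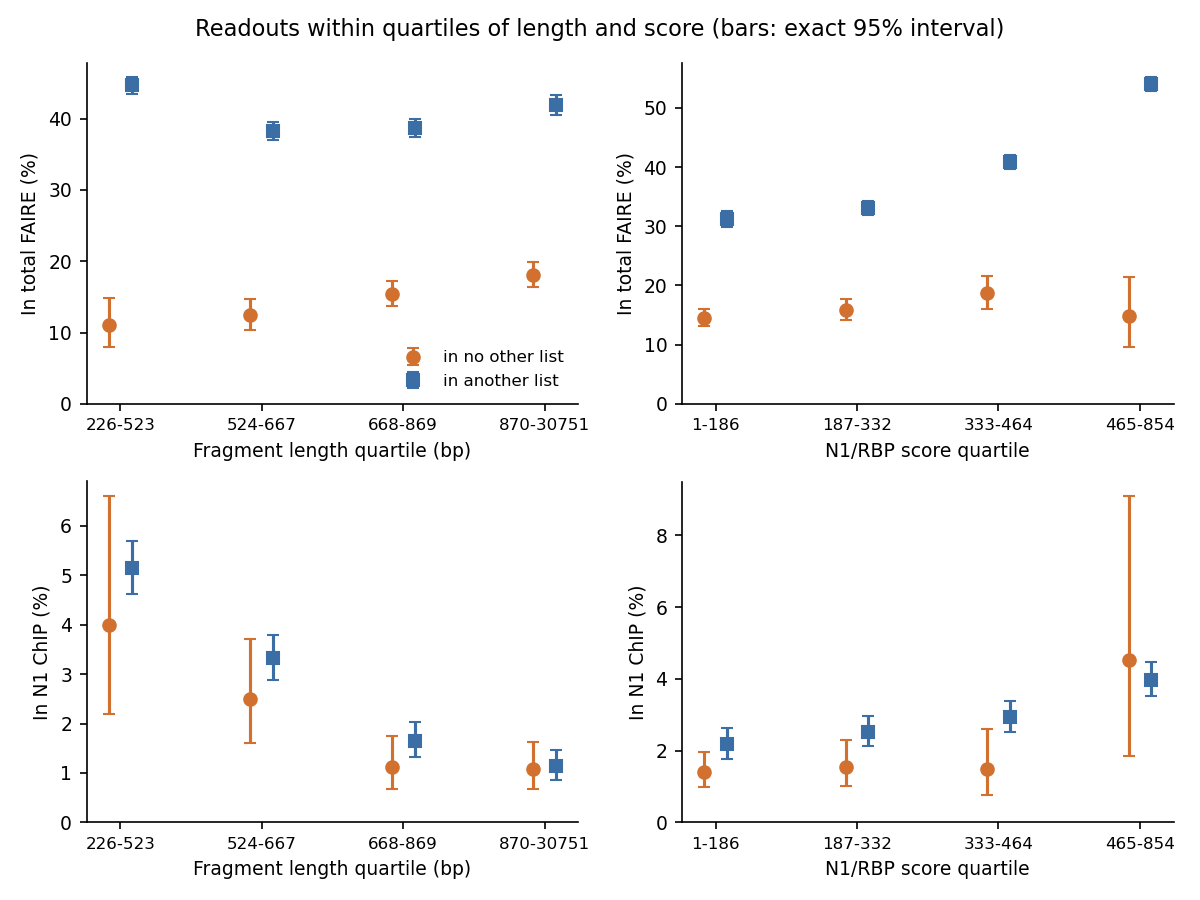
Percent of N1/RBP fragments in total FAIRE (upper panels) and N1 ChIP (lower panels) within quartiles of fragment length in bp (left) and of N1/RBP score (right), for fragments in no other complex list (orange circles) and in another list (blue squares), with exact Clopper-Pearson 95% intervals. The classes are apart for total FAIRE in each of the 4 length and 4 score quartiles. Their intervals overlap for ChIP in each of them, which does not by itself show that the classes are alike.

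The share in open chromatin differed by which other list held a fragment. Fragments shared with N1/N1 and no further list, 3333 in number, lay in total FAIRE in 35.7% of cases (34.1 to 37.4%), 20.1 points above fragments of the N1/RBP list alone and 17.9 points above after weighting to their length and score. They were also the longest of these classes, with a median of 1037 bp. The 741 shared with N1/p300 and no further list lay in total FAIRE in 25.5% (22.4 to 28.8%) and the 1906 shared with Mef2c/MAML in 21.7% (19.9 to 23.6%), both above the 15.6% of fragments alone. For the 137 shared with N1/MAML the value was 21.9% (15.3 to 29.8%) and for the 347 shared with Mef2c/p300 it was 17.0% (13.2 to 21.4%), and the intervals of both overlap that of the alone class. After weighting to length and score, the N1/MAML class was 8.31 ± 7.43 points above the alone class (half-width of a 95% normal interval for counting error), an interval that leaves out 0, against 6.28 ± 6.997 before. The Mef2c/p300 class was 1.59 ± 4.13 points above after weighting and 1.38 ± 4.08 before.

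In Notch-dependent FAIRE, fragments shared with N1/p300 and no further list had 5.80% (4.23 to 7.74%), 3.72 points above fragments alone and 3.73 after weighting. Those shared with N1/N1 had 3.90% (3.27 to 4.61%), 1.82 points above, but 0.599 points after weighting, which is within its interval of ± 1.07 points. Those shared with N1/MAML had 1.46% (0.177 to 5.17%) and those shared with Mef2c/p300 2.88% (1.39 to 5.24%). The intervals of these 3 classes overlap that of N1/p300, which does not settle their order, and the differences between these classes were not tested. Those shared with Mef2c/MAML had 1.99% (1.41 to 2.73%), which differs from the alone class by -0.088 points and by 0.282 after weighting. The 320 fragments in all 3 other N1 lists and no Mef2c list had 12.8% in Notch-dependent FAIRE (9.35 to 17.0%), 53.4% in total FAIRE and 8.13% in ChIP (5.38 to 11.7%).

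By kind of list, fragments shared with N1 lists and no Mef2c list lay in total FAIRE in 37.8% of cases, in the Notch-dependent list in 5.93% and in ChIP in 2.37%. Those shared with Mef2c lists and no other N1 list had 21.4, 2.37 and 1.52%, and those shared with both kinds had 46.7, 6.70 and 3.59%. Fragments shared with Mef2c lists alone were thus 5.78 points above the fragments of the N1/RBP list alone in total FAIRE, while they differed by 0.293 points in Notch-dependent FAIRE and by -0.0491 points in ChIP. Each Mef2c list is from 1 library, so a property of that library and of the complex cannot be told apart.

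ChIP was lower among the N1/RBP fragments that Mef2c/p300 also held. N1 ChIP held 112 of those 8457 (1.32%, 1.09 to 1.59%) and 662 of the other 19824 (3.34%, 3.09 to 3.599%). The order held within each length quartile, at 2.11 against 6.29%, 1.73 against 4.19%, 0.686 against 1.94% and 0.320 against 1.29% from the shortest to the longest. Weighting the fragments outside Mef2c/p300 to the length and score of those in it widened the difference from -2.02 to -3.38 points. The drop in ChIP from 4 to 5 other lists moves with this: the 2415 fragments in every other list but Mef2c/p300 had 7.99% in ChIP (6.94 to 9.15%), and the 2904 in all 5 had 2.89%. The 1395 in every other list but N1/MAML, which include Mef2c/p300, had 0.717%. In total FAIRE the same 3 classes had 57.0, 63.5 and 46.2%, so fragments in all 5 lists had the lower ChIP share of the first pair and the higher FAIRE share. This contrast was noticed in these data, and the part of the single Mef2c/p300 library in it was not tested.

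Many fragments of the N1/RBP list alone lay near regions of the other complexes, though less often than shared fragments did. How often any place in the genome lies as near was not measured. Another complex list had a region that abutted 1069 of them (21.2%), lay within 1 kb of 44.3% and within 5 kb of 67.1%. For shared fragments, regions of other lists elsewhere abutted 40.5% and lay within 1 kb of 70.1% and within 5 kb of 84.0%. Of the alone fragments, 1419 (28.1%) had no SpDamID region of any kind within 5 kb, and 9.65% of these (8.17 to 11.3%) lay in total FAIRE. Among the alone fragments that abutted a region of another list, total FAIRE held 22.2% (19.7 to 24.8%). Of the shared fragments, 3341 (14.4%) had no SpDamID region within 5 kb, and total FAIRE held 27.2% of these. It held 47.5% of the shared fragments that abutted a region of another list.

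Shared fragments lay nearer to FAIRE regions than fragments alone. The nearest total FAIRE region was at a median of 12.7 kb from fragments alone (quartiles 0.749 and 48.4 kb) and 0.642 kb from shared ones (upper quartile 19.4 kb). Within 5 kb of a total FAIRE region lay 38.9% of the alone and 62.7% of the shared fragments. The median distance to Notch-dependent FAIRE was 242 kb against 202 kb. To N1 ChIP it was 23.5 kb for fragments alone and 25.4 kb for shared ones, while within 5 kb of a ChIP region lay 26.1% of the alone and 28.2% of the shared fragments.

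The highest scoring N1/RBP fragments in Notch-dependent FAIRE lay close together on chromosome 2. The fragment 26315080 to 26316404 scored 833 and lay in a Notch-dependent region of 1942 bp with a MACS score of 2467.42 and in a ChIP region with a ChIP to input ratio of 163. The fragment 26318173 to 26319926 scored 824 and met a Notch-dependent region of 711 bp but no ChIP region. The fragment 26320207 to 26320456, of 250 bp, scored 795 with a ChIP ratio of 43.3, and 26316842 to 26317945 scored 705 with a ratio of 14.5. These 4 fragments were held by all 3 other N1 lists, and a Mef2c list held 1 of them, 26318173 to 26319926 (Mef2c/MAML score 167). What lies at this place on chromosome 2 was not tested, including whether it is the gene of a fused protein. The other leading fragments in Notch-dependent FAIRE were chromosome 15, 13139868 to 13140308, with 733, and chromosome 18, 20711755 to 20712600, with 718. The FAIRE region over the first spans 23523 bp, so this overlap places open chromatin only loosely. The fragment on chromosome 18 met 2 Notch-dependent regions, of 1031 and 1435 bp.

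Outside chromosome 2, the highest scoring fragments in both total FAIRE and ChIP were on chromosomes 5 and 8. Chromosome 5, 140272676 to 140273243, scored 687 for N1/RBP, and the N1/MAML score was 575, that of N1/p300 593, that of N1/N1 585 and that of Mef2c/MAML 651, with a ChIP ratio of 36.7. Chromosome 8, 126801905 to 126802667, scored 680 for N1/RBP, and the N1/MAML score was 619, that of N1/p300 628, that of N1/N1 627, that of Mef2c/MAML 459 and that of Mef2c/p300 388, with a ChIP ratio of 11.4. Neither lay in Notch-dependent FAIRE. In 579 of the 774 N1/RBP fragments in ChIP (74.8%) the deposited input signal is exactly 0.1, so their ratios follow the ChIP signal alone.

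Each complex list has fragments of its own, and those of N1/RBP were a small share of its list. N1/RBP had a private share of 17.8% and N1/p300 of 18.4%, followed by N1/MAML with 26.1%, N1/N1 with 31.3%, Mef2c/p300 with 41.0% and Mef2c/MAML with 45.1%. In total FAIRE the private fragments of N1/RBP had 15.6%, below the 18.7% of N1/N1 (17.9 to 19.5%) and above the 12.4% of N1/MAML (11.4 to 13.4%), 11.2% of N1/p300, 8.70% of Mef2c/MAML and 2.89% of Mef2c/p300. In ChIP the private fragments of N1/RBP had 1.57%, within the intervals of N1/MAML (1.39 to 2.20%) and N1/p300 (1.09 to 1.85%), while N1/N1 had 0.510%, Mef2c/MAML 0.686% and Mef2c/p300 0.0594%. Their median length of 812 bp lay between the 448 bp of Mef2c/MAML and the 1990 bp of N1/MAML private fragments.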

How the data were processed

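SpDamID cuts methylated GATC sites with DpnI and amplifies the pieces by ligation-mediated PCR before sonication and sequencing, per the labels' protocols. The authors deposited a score for each region, complex against Dam, with conf.level 0.999 or above per the file headers, and protein initials in its name tied each list to a complex. MACS scores of FAIRE regions, called in Galaxy, are per the file headers too. For ChIP the authors deposited a signal for ChIP and for input, and their ratio. Per the submitters' processing notes the build is mm9. No source used here names the aligner or the scoring tool.

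Region ends were inclusive, FAIRE starts were moved by 1 base, and 1 bp of overlap sufficed. The work was done with Python 3.11.15, numpy 2.4.6, pandas 2.3.3 and scipy 1.17.1. Overlap and distance functions were tested against plain loops on simulated data, and the weighting function was run on planted values. Gap, grouping and confidence interval functions were not tested in that way. Weights used 10 bins each of length and score. Regions named are the 5 highest scores of the list, alone, in Notch-dependent FAIRE and in FAIRE with ChIP, the 3 longest, the 5 largest groups, and 3 chromosomes at either end of density. The 4 places were added after seeing the data. Members and lists were chosen with earlier results of these data known.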

Additional observations from a re-analysis of the deposited data

How the results depend on the processing

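Of 49 alternative values for 7 main results, 23 moved beyond the main value's interval and 2 reversed. Of the other 24, 6 equal the main value by construction, 4 that required identical ends in the other list and 2 that changed the overlap with ChIP, so 18 were free to move and stayed within it. For total FAIRE, shared minus alone, 25.4 points became 22.6 when 50% of the smaller region had to overlap, 22.3 by fragment centre, 29.8 for scores from the list median up, 24.1 between the 25th and 75th percentile of length, 24.0 weighted to length and score, 21.1 with FAIRE regions up to their 95th percentile of length, 28.4 for fragments shared with an N1 list and 5.78 for those shared with Mef2c lists and no N1 list. For Notch-dependent FAIRE, 3.85 points became 3.16 by centre, 2.81 weighted, 3.26 with that limit on FAIRE length, 4.38 with an N1 list and 0.293 with Mef2c lists and no N1 list. For N1 ChIP, 1.42 points became 0.938 in the middle length range, and reversed to -1.99 weighted and to -0.0491 for Mef2c lists and no N1 list. Notch-dependent FAIRE of fragments shared with Mef2c/MAML and no further list, minus alone, went from -0.088 to 0.282 when weighted. The cause of these changes was not tested. The share in no other list, 17.8%, was 6.90% for scores from the median up, 18.8% in the middle length range and 28.6% when only N1 lists counted. The share with a neighbour within 1 kb, 44.1%, was 39.0% at 500 bp, 57.8% at 5 kb, 28.4% with abutting fragments merged and 35.4% for scores from the median up, and its difference of 16.4 points was 12.7 at 5 kb and 7.10 weighted.

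No paired analysis was possible because each list pools its libraries and carries no replicate number, and for the same reason leaving out a replicate was not run. Depth per library is unknown, and the number of short or high-scoring fragments in no other list limits the weighted values.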

Other observations

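Seen from the FAIRE side, 7926 of the 19353 total FAIRE regions (41.0%) held an N1/RBP fragment: 5789 held 1, 1742 held 2 and 395 held 3 or more. Regions with more fragments had higher deposited MACS scores and were longer. The median MACS score was 144 with no N1/RBP fragment, 169 with 1, 196 with 2 and 243 with 3 or more, and the median length was 835 bp with none, 968 bp with 1 and 1788 bp with 3 or more. Fragments found in the N1/RBP list alone were the only N1/RBP fragments of 547 of these regions (6.90%), at a median MACS score of 158 and length of 896 bp, against 179 and 1048 bp where a shared fragment was present.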
